A study of Homo sapiens with 23 samples.

Results

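The cytosolic ribosomal protein genes were followed in human thalamus organoids (ThOs), three-dimensional cultures in which pluripotent cells are guided towards thalamic tissue. Their members were taken by name: every gene whose symbol begins with RPL or RPS and a digit, together with RPLP0, RPLP1, RPLP2 and RPSA. Of 90 matching names, 7 RPS6K genes, which encode kinases, and 1 gene excluded by its position were set aside, which left 82 members among 9497 genes. They comprise 46 core genes of the large subunit, 30 core genes of the small subunit, 4 paralogs (RPL26L1, RPL36AL, RPS27L and RPL7L1) and 2 genes that share the name pattern without encoding a separate ribosomal protein. These last 2 are RPS19BP1, whose product binds RPS19, and RPS10-NUDT3, a read-through transcript that shares exons with RPS10, so that reads of these 2 loci cannot be cleanly separated. All 46 genes of the large subunit list and 30 of the 31 genes of the small subunit list were measured.

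The cytosolic ribosome joins a small subunit, which holds the mRNA and reads its codons, to a large subunit, which forms the peptide bonds. Each ribosomal protein is needed in about the same number of copies, and their mRNAs are among the most abundant in growing cells. Most of these mRNAs begin with a C followed by an uninterrupted stretch of C and T bases, the 5′ terminal oligopyrimidine (TOP) tract, through which the mTOR kinase governs their translation as a set. In developing neural tissue, ribosome content is high in dividing progenitors, and inherited loss of single ribosomal protein genes such as RPS19, RPL5 or RPL11 causes Diamond-Blackfan anaemia.

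All ThOs came from the H1 embryonic stem cell line. ThOs labelled WT were unedited, ThOs labelled KO carried a CRISPR/Cas9 knockout of c-JUN (gene JUN), which acts within the dimeric transcription factor AP-1, and ThOs labelled OE carried the same kind of knockout with c-JUN expressed from a doxycycline-induced tet-on plasmid. Each genotype was sampled at day 25 and at day 30, with 2 libraries per group and 3 pooled ThOs behind a library, which makes 12 libraries. The study describes more than 1 knockout clone and the labels do not say which was used. Whether the WT and KO cultures also received doxycycline is not given in the sources used here. Nothing states that the 2 libraries of a group came from separate cultures, so p-values measure the spread between these libraries, which may be technical. The deposited numbers are whole-number normalized scores between 11 and 9910, called values here, whose read depth is unknown. Whether they are corrected for transcript length is not stated, so a value is compared mainly between libraries. Where genes are split or ordered by mean value below, any uncorrected transcript length bears on the order.

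Some properties of the libraries touch every result below. JUN was 139 and 153 in WT, 353 and 196 in KO and 224 and 212 in OE at day 25. At day 30 it was 128 and 162 in WT, 222 and 248 in KO and 362 and 202 in OE. The 4 libraries labelled KO therefore lay above the 4 labelled WT for the targeted gene (0.77 ± 0.23 on the log2 scale (SE), limma adjusted p = 0.197; exact two-sided permutation p = 0.0286, the smallest that 4 against 4 libraries allow). The targeted mRNA therefore goes against what the label says, though an mRNA value does not measure the protein. The paper reports no c-JUN protein in the knockout cell lines by western blot, and overexpressed protein under doxycycline. It also reports no c-JUN mRNA by RT-qPCR in knockout neural progenitor cells and cerebral organoids. Those checks were not made on these ThO libraries. For ThOs, the paper reports ATAC-seq, which maps accessible chromatin, with the c-JUN gene less accessible in KO than in WT and OE. Chromatin accessibility measures neither the mRNA nor the protein, and the ATAC-seq samples were not analysed here. WT, KO and OE below stand for the libraries labelled so. The second KO library of day 30 stood apart from all others, with a median Spearman correlation of 0.745 to the other 11 libraries against 0.830 to 0.934 for the rest. At the top of the scale the values lie on shared steps of 8 to 10 genes, 9910 for the uppermost and 3449 to 3456 for the next, 2.87-fold lower. A move of a high member by 1 such step is a move in rank as much as in amount. In pooled tissue, fewer cells of a type and less RNA per cell cannot be told apart.

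The starts of the members' transcripts were read from RefSeq (GRCh38.p14), which listed 65 of the 82 members. A TOP start was counted where any listed first base was C and opened a run of at least 5 C or T. Of the 61 core members with a listed start, 46 (75.4%) had one, 28 of 38 in the large subunit and 18 of 23 in the small subunit, against 5.14% of all 27305 genes with a listed start and 7.65% of the 7752 other genes in the tables. None of the 4 listed members outside the core had one. The sequences shown are those of listed members of wide range over the libraries (RPS27, RPL36A, RPL11, RPS12 and RPS28), of narrow range (RPSA and RPLP0) and of a paralog (RPS27L), with 15 bases before and 15 from the start and the TOP run in capitals.
RPS27 (chr1:153990747-153990776, + strand): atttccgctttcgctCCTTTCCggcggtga
RPL36A (chrX:101390996-101391025, + strand): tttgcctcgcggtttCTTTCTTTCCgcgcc
RPL11 (chr1:23691791-23691820, + strand): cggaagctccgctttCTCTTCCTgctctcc
RPS12 (chr6:132814554-132814583, + strand): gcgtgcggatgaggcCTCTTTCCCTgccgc
RPS28 (chr19:8321481-8321510, + strand): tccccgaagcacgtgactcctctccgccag
RPSA (chr3:39406705-39406734, + strand): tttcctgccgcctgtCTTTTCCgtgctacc
RPLP0 (chr12:120201097-120201126, − strand): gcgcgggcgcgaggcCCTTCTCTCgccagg
RPS27L (chr15:63157463-63157492, − strand): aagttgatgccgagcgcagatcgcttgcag
Wide and narrow ranges both occurred among genes with a TOP start, as RPS27 and RPSA show, and RPS28 ranged widely with no C at its listed first base. The paralog RPS27L lacks the run that RPS27 carries. The AP-1 motif TGACTCA, searched together with its reverse complement TGAGTCA in the 250 bases before and 50 bases after the start, was found for 1 of the 61 core members (RPL24; 1.64%), against 6.05% of all genes with a listed start and 4.27% of those in the tables. The related motif TGACGTCA, which is its own reverse complement, was found for 3 of them (RPL3, RPLP2 and RPL18; 4.92%), against 2.25% of all genes and 4.22% of those in the tables.

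The ribosomal protein genes moved largely together from library to library. The mean log2(value + 1) over the 76 core members was 9.02 and 9.47 in the WT libraries, 9.09 and 9.35 in KO and 9.41 and 9.76 in OE at day 25. At day 30 it was 9.72 and 9.55 in WT, 9.64 and 9.11 in KO and 9.96 and 9.80 in OE. Both OE libraries lay above both KO libraries at each day, while WT and KO overlapped at each day. The lowest 3 libraries were the first WT library of day 25, the first KO library of day 25 and the second KO library of day 30, in which 30, 20 and 22 of the 76 core members were at or tied for their minimum. The highest was the first OE library of day 30, where 46 core members reached or tied their maximum. The mean log2 value over all 9497 genes ranged only from 6.80 to 6.84 over the same libraries. Of the summed values, the members took 3.31% to 5.13% per library.

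Replicates of a group differed by amounts similar to those between groups. The second WT library of day 25 exceeded the first for 70 of 82 members, with a median difference of 0.45 on the log2 scale, and the second KO library of day 30 lay below the first for most members, with a median difference of −0.35. In that KO pair 19 members (23.2%) were at least 2-fold apart, as were 21.5% of all genes. In the WT pair of day 25 these shares were 11.0% of members and 4.45% of all genes. The pooled SD between replicates of the core mean was 0.25 on the log2 scale, so that a class difference of this size between 2 pairs of libraries lies within the spread between replicates. Since the members move together, a count of members past a threshold is not a count of independent observations.

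**Figure D1:**
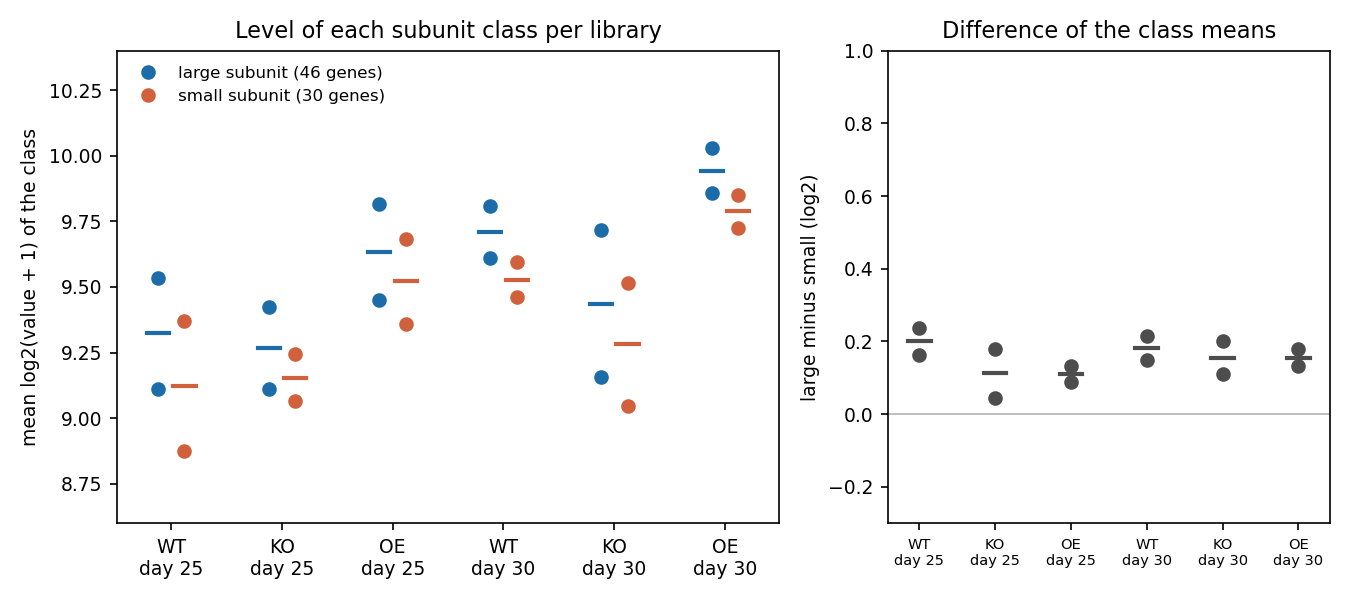
Left, mean log2(value + 1) of the 46 large subunit (blue) and 30 small subunit (orange) core genes in each library (points) with the mean of the 2 libraries of a group (bar), by genotype label and day. Right, the large subunit mean minus the small subunit mean per library, which stayed between 0.04 and 0.24, while the levels moved by nearly 1 log2 unit.

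Large and small subunit genes kept pace with each other. The large subunit mean exceeded the small subunit mean in all 12 libraries, by 0.04 to 0.24 on the log2 scale, with a pooled SD between replicates of 0.06. By group the difference was 0.20 ± 0.05 for WT, 0.11 ± 0.10 for KO and 0.11 ± 0.03 for OE at day 25 (SD, n = 2). At day 30 it was 0.18 ± 0.05 for WT, 0.16 ± 0.06 for KO and 0.15 ± 0.03 for OE (SD, n = 2). The WT libraries had the highest group mean at both days, but WT and KO overlapped at each day. At day 25 both WT libraries (0.24 and 0.16) lay above both OE libraries (0.09 and 0.13), and at day 30 WT and OE overlapped. The offset between the classes is on the deposited scale, and only its course over libraries is read here.

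The comparison of the libraries labelled OE with those labelled KO, a knockout with and without the c-JUN plasmid by the labels, gave the largest median shift of the members among the genotype comparisons. JUN itself was 196 to 353 in the libraries labelled KO and 202 to 362 in those labelled OE, with a difference of −0.03 ± 0.23 on the log2 scale (SE; limma adjusted p = 0.949; exact two-sided permutation p = 0.886), so the mRNA tables do not show the gain in JUN that the OE label states. Averaged over both days, the median log2 fold change was 0.40 for the large subunit and 0.45 for the small subunit, against 0.01 for all genes. The sign was positive for 40 of 46 large and 27 of 30 small subunit core genes. At an unadjusted p under 0.05, 38 of the 82 members were higher in OE and 0 lower, where 11.5% of all genes were higher and 10.7% lower. Both OE libraries exceeded both KO libraries within each day for 29 members (15 large, 13 small and the paralog RPL36AL), or 35.4%, against 8.5% of all genes. In the opposite direction this held for RPS19BP1 alone, against 6.85% of all genes. Across both days, all 4 OE libraries exceeded all 4 KO libraries for 4 members, against 5.17% of all genes, and lay below them for 1, against 4.51%. Those 4 members are a share close to the background, while the share within each day is above it.

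RPS27, a small subunit protein that binds zinc, was the 1 member that passed the test, an adjusted p under 0.05 with at least a 2-fold change, in this comparison, where 2.22% of all genes did. Its gene (ENSG00000177954; GRCh38 chromosome 1, 153990762 to 153992155) had values of 36 and 47 in KO and 158 and 202 in OE at day 25. RPS27 at day 30 had 281 and 62 in KO and 330 and 418 in OE, and in WT it had 36 and 96 at day 25 and 188 and 138 at day 30. The OE libraries were above the KO libraries within each day, and the first KO library of day 30 was above both OE libraries of day 25. RPS27 rose by 1.79 ± 0.43 (SE) on the log2 scale, 3.45-fold (limma adjusted p = 0.0460; exact two-sided permutation p = 0.0857 over the 4 and 4 libraries). The permutation shuffled libraries across both days, so the day difference of RPS27 enters its spread. The call did not hold without the second KO library of day 30, when the fold was 1.25 on the log2 scale with an adjusted p of 0.0876, nor when any other library but 1 was left out. Over all 23 alternatives it held in 8. Among these, dropping the filter and centring on the library median repeat the main fit and could not change the call.

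At an adjusted p under 0.05 without the fold limit, 3 members were found, where 3.3% of all genes were. RPL37 and RPS21 joined RPS27, and both are named for this count after their values were seen. RPL37, a large subunit protein, had 220 and 185 in KO and 350 and 434 in OE at day 25, and 462 and 374 in KO and 462 and 542 in OE at day 30. Its groups were clearly apart at day 25 and touched at day 30, with a log2 fold change of 0.61 ± 0.14 (SE) and an adjusted p of 0.0441. RPS21, a small subunit protein, had 134 and 124 in KO and 188 and 286 in OE at day 25, and 204 and 153 in KO and 282 and 272 in OE at day 30. Its OE libraries were higher within each day, by 0.74 ± 0.18 (SE) on the log2 scale with an adjusted p of 0.0498. The calls of RPL37 and RPS21 were lost in 14 and 15 of 23 alternatives, which include the settings that repeat the main fit.

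4 members had all 4 OE libraries above all 4 KO libraries: RPL18 and RPL39 of the large subunit, RPS23, which lies at the decoding centre, and RPS27A, which is made as a fusion with ubiquitin. RPL39, whose product lines the exit tunnel for the growing peptide, had 338 and 358 in KO and 418 and 578 in OE at day 25. RPL39 at day 30 had 402 and 202 in KO and 638 and 500 in OE. The fitted shift of RPL39 was 0.74 ± 0.21 log2 units (SE; adjusted p = 0.0747). RPS23 had 1010 and 822 in KO and 1157 and 1408 in OE at day 25, and 1128 and 876 in KO and 1328 and 1408 in OE at day 30. The gap between the lowest OE and the highest KO library of RPS23 was thus 1157 to 1128, and the fitted shift was 0.47 ± 0.13 log2 units (SE; adjusted p = 0.0695). RPL18 (0.79 ± 0.27; adjusted p = 0.124) and RPS27A (0.51 ± 0.16; adjusted p = 0.0985) had KO values of 400 to 924 and 422 to 532 and OE values of 947 to 1260 and 562 to 804. For each of the 4 the exact two-sided permutation p, with libraries shuffled across both days, was 0.0286, unadjusted. That value follows from the separation by which the 4 were picked and adds no support. RPS19BP1 went the other way, from 51 to 94 in KO to 43 to 50 in OE (−0.57 ± 0.27; adjusted p = 0.243).

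**Figure D2:**
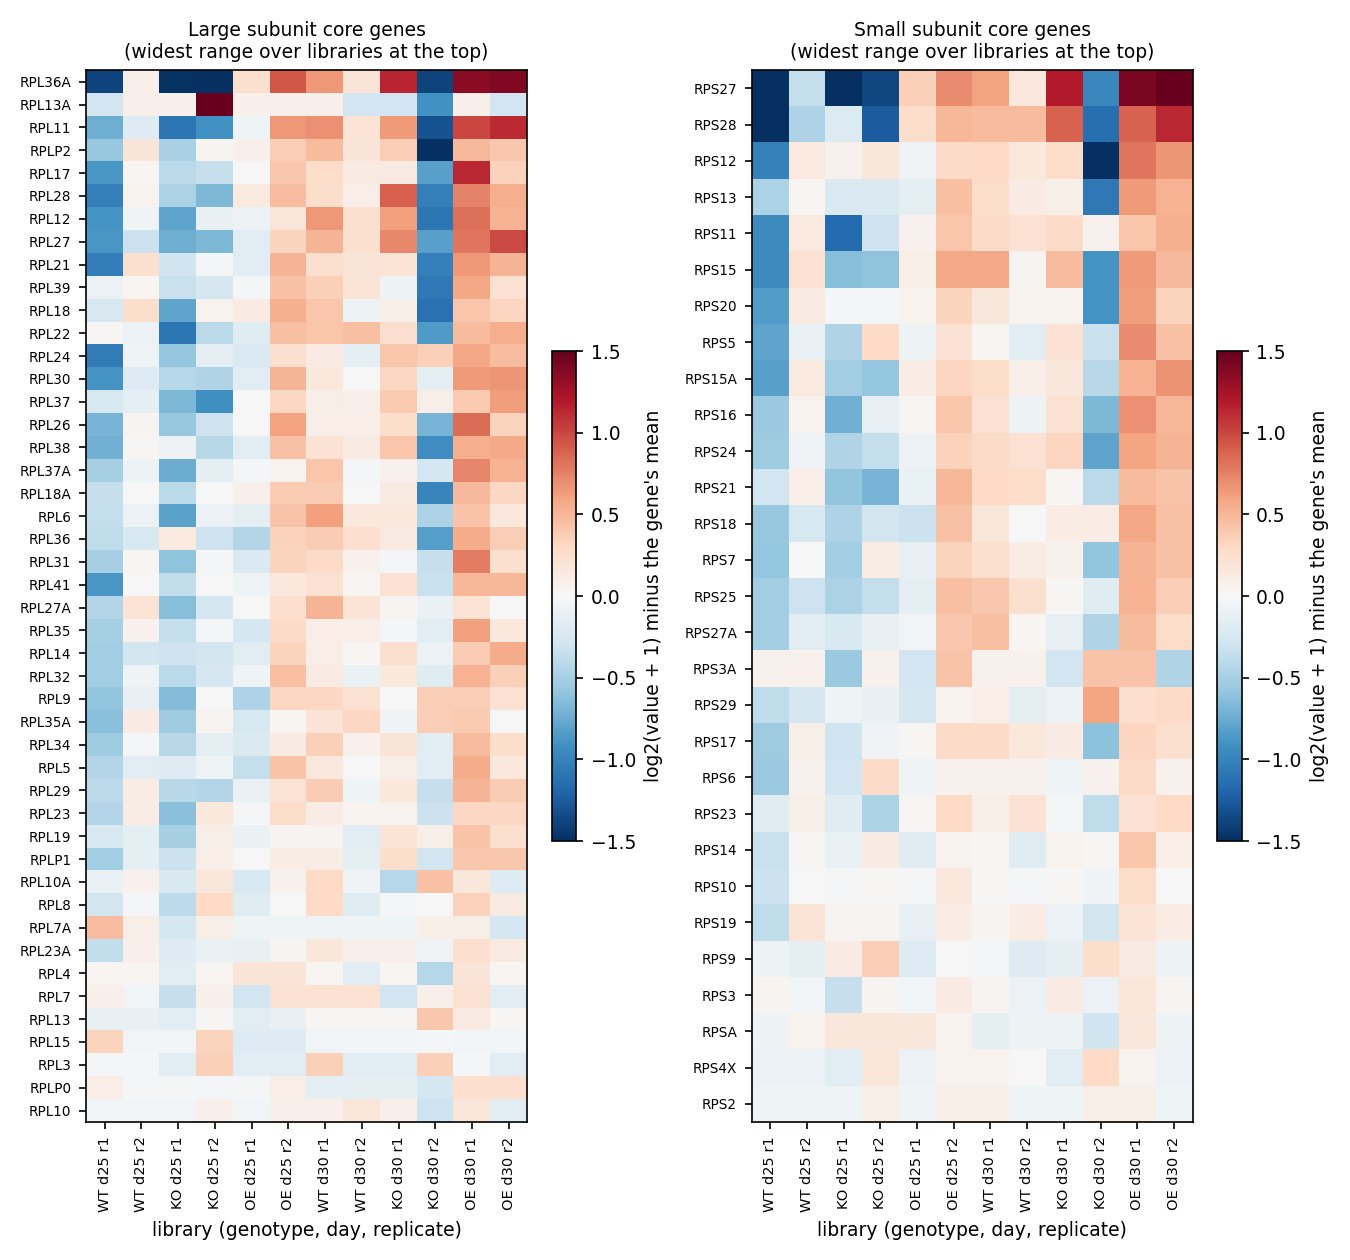
Core members (rows, widest range at the top; 1 is not shown) in each of the 12 libraries (columns), as log2(value + 1) minus the mean of that gene over all libraries, with the colour scale limited to 1.5 in either direction. The OE libraries of day 30 are above the mean for most members, and the first libraries of WT and KO at day 25 and the second KO library of day 30 are below it, while the lowest rows hardly vary.

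The shift from KO to OE was seen at each day, and its size at day 30 depended on 1 library. At day 25 the median log2 fold change was 0.37 for the large and 0.31 for the small subunit, with 14 members higher at an unadjusted p under 0.05, where 9.31% of all genes were, and 1 lower (RPL15), where 8.5% were. At day 30 the medians were 0.45 and 0.49, with 27 members higher, against 5.9% of all genes, and 0 lower, against 5.01%. Without the second KO library of day 30, the median over the core members for both days fell from 0.42 to 0.29 and the count of higher members from 38 to 22, while 68 of 76 core members still had a positive sign. Without the first KO library of day 30, the median was 0.55 and 15 members instead of 1 passed the test, as did 10.2% of all genes in that fit. At each day alone no member passed the adjusted test with 2-fold, which 0.274% of all genes did at day 25 and 0.0842% at day 30. Without the first KO library of day 30, 3 members passed it at day 25 (3.55% of all genes) and 25 at day 30 (15.2% of all genes).

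OE also exceeded WT in most members, by less. These comparisons share the OE libraries with those above and are not independent of them. Over both days the median log2 fold change was 0.26 for the large and 0.29 for the small subunit, and 73 of 82 members had a positive sign. At an unadjusted p under 0.05, 19 members were higher and 0 lower, against 3.53% and 4.69% of all genes, and no member passed the adjusted test, which 0.158% of genes passed. Both OE libraries exceeded both WT libraries within each day for 15 members, against 8.04% of all genes, and the reverse held for 0, against 7.8%. Over the days together the 4 OE and 4 WT libraries overlapped for every member, whereas 4.13% of all genes were entirely higher and 4.34% entirely lower.

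In the fit of all libraries no member passed the test between KO and WT, and directions here carry the caveat that JUN was higher in the libraries labelled KO. Over both days the median log2 fold change was −0.14 for the large and −0.15 for the small subunit, against −0.02 for all genes, and 4 members were lower and 0 higher at an unadjusted p under 0.05, against 8.16% and 7.01% of all genes. The smallest adjusted p of any member was 0.228, and 0.0211% of all genes passed the adjusted test with 2-fold. The 4 lower members were RPL22, RPS21, RPL39 and RPS23, named here because the count is small. RPL22, a large subunit protein, had 414 and 386 in WT and 192 and 309 in KO at day 25, and 546 and 562 in WT and 489 and 226 in KO at day 30. RPL22 was lower in both KO libraries at each day, the fitted shift being −0.72 ± 0.24 log2 units (SE; adjusted p = 0.228). RPL39 was likewise lower in KO within each day, with WT values of 399, 434, 546 and 489 and KO values of 338, 358, 402 and 202 (−0.56 ± 0.21; adjusted p = 0.253).

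Within each day, RPL22, RPL39 and RPS21 were the members whose KO libraries both lay below the WT libraries, against 5.6% of all genes, and 0 members showed the reverse, against 4.74%. With the days pooled no member separated the 4 KO from the 4 WT libraries, whereas 2.74% of all genes were entirely higher and 3.14% entirely lower. At day 25 the medians were −0.01 and 0.09 for the large and small subunit, with 1 member lower (RPL37; 7.39% of all genes) and 1 higher (RPL13A; 6.03%). At day 30 the medians were −0.23 and −0.27, with 2 members lower (RPL39 and RPS27A; 3.93%) and 0 higher (3.43%). The adjusted test with 2-fold was passed by 0.0105% of all genes at day 25 and 0% at day 30, and by no member. Without the first KO library of day 30, 15 members passed it at day 30 (11.4% of all genes) and 3 over both days (5.66%), and without the first KO library of day 25, 1 passed it at day 25 (0.358%). Without the second KO library of day 30, the core median over both days moved from −0.15 to −0.01, and without the second WT library of day 25 to −0.02. The difference of the KO effect between the days had an adjusted p of at least 0.802 for every member (0% of all genes under 0.05). By its unadjusted p, 1 member was higher (RPL37; 3.17% of all genes) and 2 were lower (RPL13A among them; 2.46%).

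**Figure D3:**
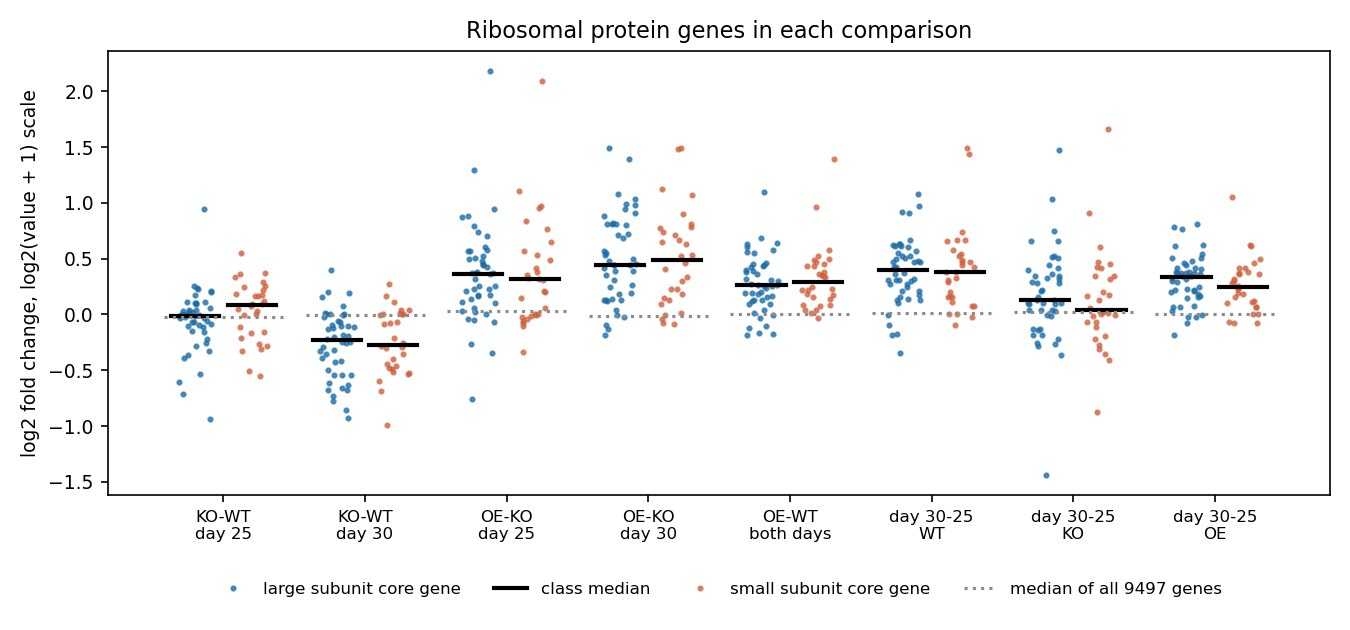
Log2 fold change of each core member in 8 comparisons (points, large subunit blue and small subunit orange), with the class medians (black bars) and the median over all 9497 genes (dotted line). The OE comparisons and the day comparisons of WT and OE lie above the dotted line for both subunits, KO against WT lies on it at day 25 and below it at day 30, and the 2 classes have similar medians throughout.

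Most members had a positive difference from day 25 to day 30, and none passed the test. The second KO library of day 30 was an exception in level, with a core mean of 9.11 that lay among those of day 25. Averaged over the genotypes the median log2 fold change was 0.29 for the large and 0.18 for the small subunit, against 0.01 for all genes, with a positive sign for 73 of 82 members. At an unadjusted p under 0.05, 27 members were higher, against 5.76% of all genes, and 1 was lower (RPL13A), against 5.54%. No gene passed the adjusted test (0% of all genes), and the smallest adjusted p of a member was 0.193. Within WT the medians were 0.40 and 0.38, with 10 members higher and 0 lower (2.19% and 2.11% of all genes). Within OE they were 0.33 and 0.25, with 2 higher and 0 lower (0.727% and 1.17%). Within KO they were 0.13 and 0.04, with 5 higher and 3 lower (7.4% and 5.84%). In none of the 3 genotypes did any gene pass the adjusted test with 2-fold (0% in each). Without the second KO library of day 30, the KO medians became 0.39 and 0.28. Without the first KO library of day 30 they became −0.03 and −0.05, so that the sign within KO turned with the library kept. Without the first WT library of day 25, the WT medians became 0.14 and 0.08, so that 1 library held much of that difference.

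RPL13 was the 1 member with all 6 libraries of day 30 above all 6 of day 25, against 0.295% of all genes, and no member showed the reverse, against 0.474%. RPL13, a large subunit protein, had 1466, 1466, 1411, 1603, 1411 and 1466 at day 25. At day 30 it had 1604, 1606, 1604, 2090, 1740 and 1604, so the separation amounted to 1603 against 1604. Both values lie on 1 shared step of the scale, 1599 to 1608, and are close to a tie. The separation of RPL13 within KO rests on the same values. The log2 fold change of RPL13 was 0.21 ± 0.09 (SE; adjusted p = 0.409). Within each genotype the later libraries were higher for 9 members, against 1.41% of all genes, namely RPL13, RPL14, RPL30, RPL36A, RPL37, RPS27, RPL26L1, RPS27L and RPS10-NUDT3. The reverse held for 0, against 1.65%. RPS27 had the largest day difference of these 9, 1.38 ± 0.35 on the log2 scale (SE; adjusted p = 0.227).

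RPL13A had its difference between the days within KO, with −1.44 on the log2 scale, while WT and OE overlapped between the days. It is a large subunit protein also known for a role outside the ribosome in the interferon response. Its values were 2672 and 3452 in WT, 3456 and 9910 in KO and 3452 and 3452 in OE at day 25. At day 30 they were 3452 and 2670 in WT, 2670 and 1738 in KO and 3452 and 2670 in OE. The library at 9910 sits on the uppermost step and its neighbours on the next, so the fitted shift of −0.54 ± 0.22 log2 units (SE; adjusted p = 0.409) rests on few steps.

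The members differed in how far they ranged. Over the 12 libraries the log2 range had a median of 1.11 among the core members, against 1.29 among all genes, and 45 of 76 core members (59.2%) ranged over at least 2-fold and 7 (9.21%) over at least 4-fold, against 70.7% and 17.1% of all genes. RPS27 was the widest, from 36 to 418 (3.50 on the log2 scale). RPL36A, a large subunit protein encoded on chromosome X, followed with values of 48 and 134 in WT, 45 and 38 in KO and 150 and 244 in OE at day 25. At day 30 RPL36A had 200 and 146 in WT, 282 and 48 in KO and 328 and 334 in OE, a range of 3.10. OE exceeded KO in RPL36A within each day, by 1.84 ± 0.48 (SE; adjusted p = 0.0623). RPS28, a small subunit protein at the mRNA exit site, had 75 and 162, 194 and 94 and 270 and 316 in WT, KO and OE at day 25. At day 30 it had 312 in both WT libraries, 415 and 102 in KO and 414 and 490 in OE. Its KO pair of day 30 was 415 and 102, wider than the distance between most groups, and its log2 fold change from KO to OE was 1.12 ± 0.40 (SE; adjusted p = 0.141).

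RPS12, the small subunit gene next in range, had its lowest value, 81, in the second KO library of day 30, beside 344 in the first. Among the narrowest members were RPS2 and RPS4X, both of the small subunit. RPS2 had 1879 to 2094 over the 12 libraries, a range of 0.16 on the log2 scale. RPS4X, the X-linked gene for its protein, had 1256 to 1736. Groups overlapped for RPS2 in every genotype comparison over both days. Core members with a higher mean value ranged less, with a Spearman correlation of −0.58 over the 76 core members. This is a description over genes measured in the same 12 libraries, and the steps at the top of the scale and any uncorrected transcript length bear on it.

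**Figure D4:**
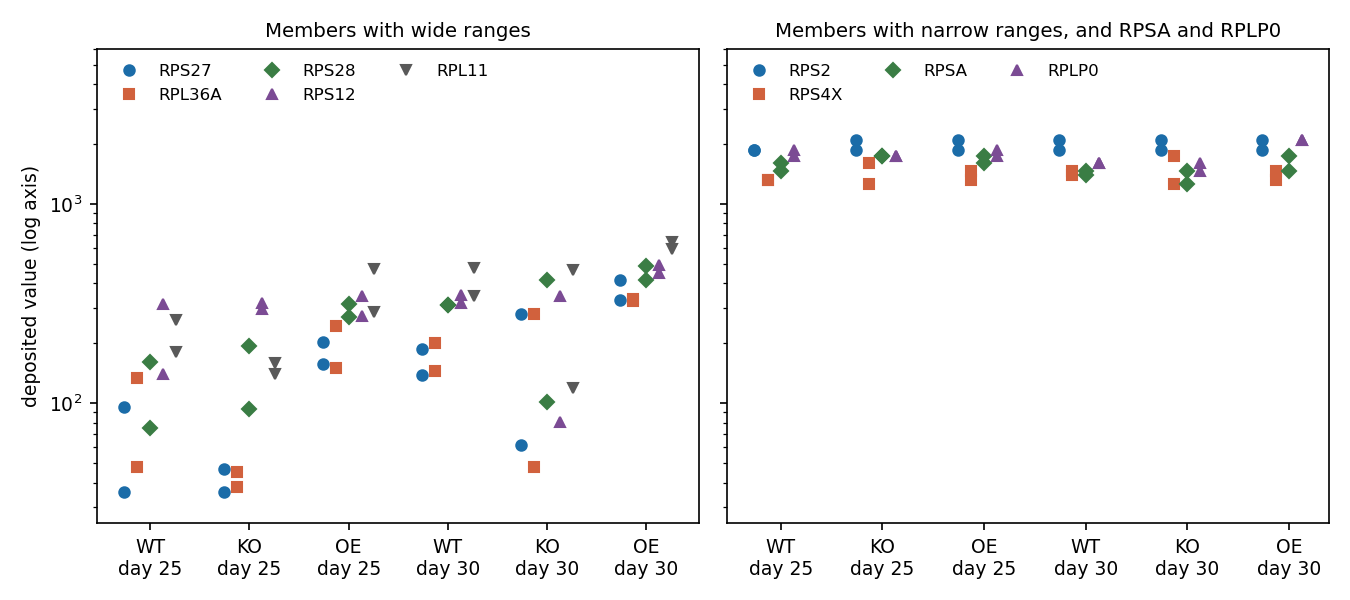
Deposited values on a log axis in the 2 libraries of each group (points, which coincide where values tie) for 5 members of wide range and for RPS2, RPS4X, RPSA and RPLP0, which ranged little. RPS27 spans 36 to 418 and RPL36A 38 to 334, while RPS2 stays between 1879 and 2094.

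Split by mean value over all libraries, the median log2 fold change from KO to OE was 0.80 for the 8 core members with a mean under 300, 0.53 for the 41 between 300 and 1000 and 0.12 for the 27 at 1000 or more. The other genes in the tables had medians of 0.01, 0.03 and −0.02 in the same classes. For day 30 against day 25 the 3 medians were 0.59, 0.29 and 0.08 for core members and 0.01, 0.0018 and 0.0033 for other genes. A positive sign from KO to OE was found for 8 of 8, 40 of 41 and 19 of 27 core members. The steps at the top of the scale and any uncorrected transcript length bear on this split too.

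The 3 proteins of the stalk, which recruits the translation factors to the large subunit, had a positive sign from KO to OE, with a median log2 fold change of 0.29. RPLP0, the stalk base, had 1882 and 1742 in WT, 1743 and 1743 in KO and 1743 and 1882 in OE at day 25. At day 30 it had 1606 and 1606, 1606 and 1468 and 2094 and 2094. The OE libraries of day 30 were the highest, and the log2 fold change from KO to OE was 0.25 ± 0.09 (SE; adjusted p = 0.126). RPLP1 and RPLP2, which form the flexible arms, ranged from 340 to 640 and from 175 to 721, with 0.29 ± 0.16 and 0.74 ± 0.34 from KO to OE (SE; adjusted p = 0.317 and 0.226). RPSA, a small subunit protein that also occurs as a laminin receptor at the cell surface, had 1261 to 1743 in KO and 1466 to 1738 in OE, which overlapped.

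Among the genes of Diamond-Blackfan anaemia, 17 of 18 listed genes were measured, with a median log2 fold change from KO to OE of 0.52. Of these, 10 were higher and 0 lower at an unadjusted p under 0.05, against 11.5% and 10.7% of all genes. Core members moved the same way as a class, so this is not read as particular to the disease genes. By the same measure 21 of the 46 core members with a TOP start and 8 of the 15 without were higher, and 0 lower. RPL11, which with RPL5 binds MDM2 when ribosome assembly fails, had 180 and 261 in WT, 140 and 159 in KO and 286 and 470 in OE at day 25. At day 30 RPL11 had 480 and 345 in WT, 466 and 120 in KO and 598 and 649 in OE. Its OE values exceeded KO within each day, by 1.34 ± 0.35 (SE; adjusted p = 0.0627). RPL5 had 804 to 1599 over the libraries and 0.28 ± 0.17 from KO to OE (adjusted p = 0.365). RPS19 had 946 to 1411 and 0.15 ± 0.13 (adjusted p = 0.524). The partners RPL5 and RPL11 thus differed in the size of their shift, a difference that was not tested.

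Of the 4 paralogs, 2 were higher at day 30 and 1 was higher in OE than in KO at an unadjusted p under 0.05, against 5.76% and 11.5% of all genes. Between day 25 and day 30, RPS27L, a p53 target related to RPS27, had 17 and 26 in WT, 20 and 34 in KO and 21 and 25 in OE, then 62 and 32, 36 and 96 and 60 and 40. Each later pair was above its earlier pair, by 1.09 ± 0.30 on the log2 scale (SE; adjusted p = 0.256). RPL26L1 had 16 to 30 at day 25 and 25 to 46 at day 30 (0.75 ± 0.23; adjusted p = 0.283). RPL36AL, a retrocopy of RPL36A, had 31 and 37 in KO and 42 and 64 in OE at day 25, and 60 and 33 in KO and 66 and 86 in OE at day 30. Its OE libraries were higher within each day, by 0.67 ± 0.26 (adjusted p = 0.164). RPL7L1, which acts in ribosome assembly, had its lowest value, 126, in the second KO library of day 30 and otherwise 264 to 382. RPS10-NUDT3 had 16 to 42 at day 25 and 34 to 69 at day 30 (0.97 ± 0.21; adjusted p = 0.195). Reads from near-identical paralogs and processed pseudogenes can be split between copies in counting, so the values of RPL36A, RPL36AL, RPS27 and RPS27L are uncertain to that extent.

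FAU and RACK1, ribosomal proteins whose symbols the name rule does not catch, were looked at in the same way. FAU, whose product is cut to RPS30, had 147 to 338 at day 25 and 281 to 385 at day 30, and differed by 0.40 ± 0.19 from KO to OE (adjusted p = 0.232) and by 0.61 ± 0.15 from day 25 to day 30 (adjusted p = 0.227). RACK1, a scaffold on the small subunit, had 1212 to 1602 at day 25 and 1408 to 2094 at day 30, with −0.06 ± 0.11 from KO to OE. RACK1 was highest in the second KO library of day 30, in which most core members were low.

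Other genes of protein synthesis were counted in the same way from KO to OE, where 11.5% of all genes were higher and 10.7% lower at an unadjusted p under 0.05. The median log2 fold change was 0.43 over 8 snoRNA host genes, 4 of which were higher and 0 lower at an unadjusted p under 0.05. It was 0.23 over 34 ribosome biogenesis genes, with 7 higher and 0 lower, and 0.16 over 29 initiation factor genes, with 6 higher and 1 lower. It was 0.02 over 7 elongation factor genes (1 higher, 0 lower), 0.03 over 11 RNA polymerase I genes (0 higher, 1 lower) and 0.19 over 20 regulators of mTOR and MYC signalling (2 higher, 2 lower). For the 56 mitochondrial ribosomal protein genes, which serve the separate ribosome of mitochondria, the median was 0.06, with 1 higher and 1 lower. From day 25 to day 30 the medians were 0.36 for snoRNA hosts, 0.19 for biogenesis and 0.10 for initiation. They were 0.11 for elongation and 0.12 for mitochondrial ribosomal proteins. By the same measure 4, 3, 6, 2 and 7 of these genes were higher and 0 lower in each, against 5.76% and 5.54% of all genes. In the RNA polymerase I list TAF1D was higher (0.34) and POLR1A lower (−0.29). Among the regulators of mTOR and MYC signalling MLST8 was higher (0.47) and MXD4 lower (−0.33). SNHG1, a snoRNA host, rose by 1.31 on the log2 scale from KO to OE (limma adjusted p = 0.0366).

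A TOP start was compared with its absence across these shifts. From KO to OE, the 46 core members with a TOP start had a median log2 fold change of 0.45, with a positive sign for 42, and the 15 listed core members without had 0.28, with a positive sign for 11. The 593 other genes with a TOP start had a median of 0.06, with 57.3% positive, against 0.01 and 50.9% for the 7159 other genes without. For day 30 against day 25 the core medians were 0.28 with and 0.29 without a TOP start, and the others 0.06 and 0.01. The core members with a TOP start had a lower median mean value, 625, than those without, 1021, and the shift also differed with the mean value, as given above. These are descriptions with no test.

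**Figure D5:**
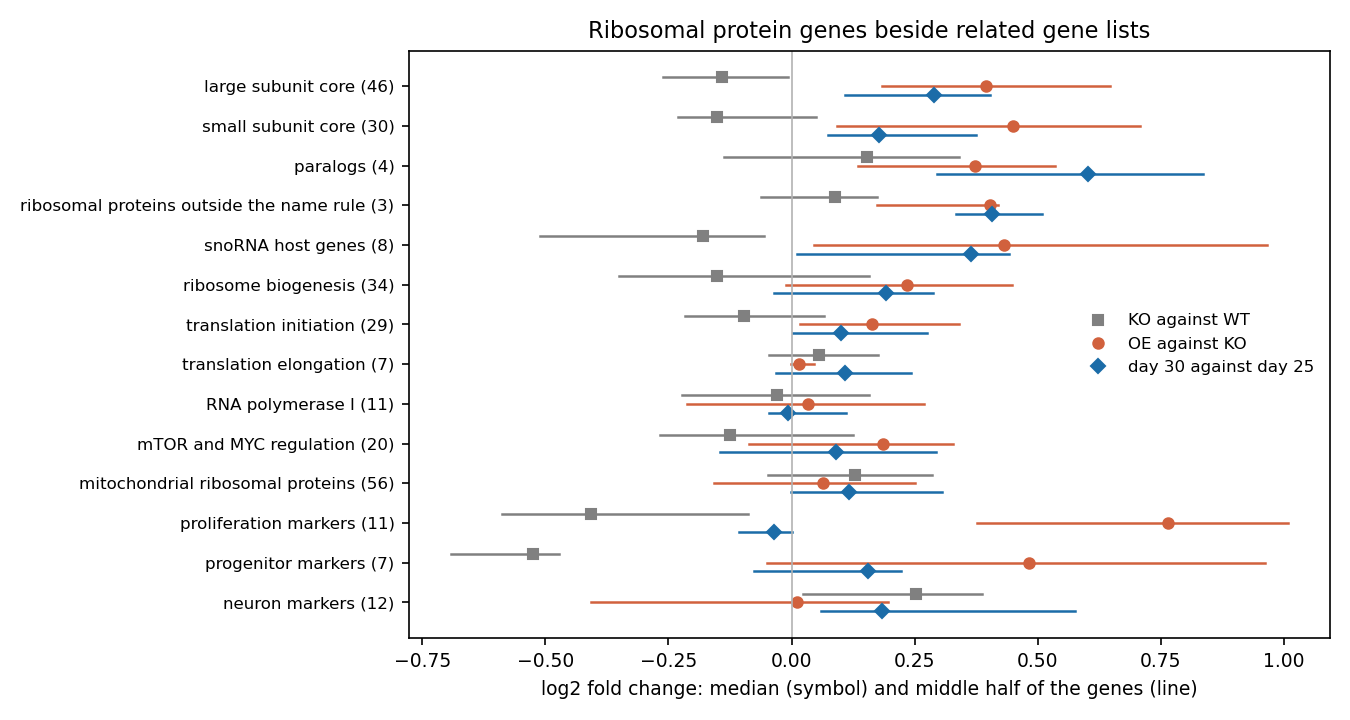
Median log2 fold change (symbols) and the interquartile range of the genes (lines) for the ribosomal protein classes and related gene lists, with the number of measured genes in parentheses, in KO against WT (grey), OE against KO (orange) and day 30 against day 25 (blue). The ribosomal protein classes lie at 0.40 and 0.45 in OE against KO, translation elongation and RNA polymerase I near 0, and proliferation markers at 0.76.

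Markers of cell state moved with part of these differences. From KO to OE, 11.5% of all genes were higher and 10.7% lower at an unadjusted p under 0.05. Of 11 measured proliferation markers, 9 were higher and 0 lower in OE than in KO by this measure, with a median of 0.76 on the log2 scale. Their mean log2 value was 7.08 to 7.55 in the KO libraries and 7.93 to 8.06 in the OE libraries. In KO against WT, 5 proliferation markers were lower and 0 higher, against 8.16% and 7.01% of all genes. From day 25 to day 30 no proliferation marker was higher or lower by this measure (median −0.03). Most ribosomal protein genes had a positive difference between these days, and none passed the adjusted test. Of 7 progenitor markers 3 were higher in OE than in KO, and of 12 neuron markers 1 was higher and 2 were lower. From day 25 to day 30, when 5.76% of all genes were higher and 5.54% lower, 5 of the 12 neuron markers were higher (STMN2, GAP43, NEFL, NEFM and INA) and 0 lower. Neuron markers had a mean log2 value of 8.38 to 9.14 at day 25 and 8.71 to 9.34 at day 30. Of the thalamus markers 6 of 13 were measured (TCF7L2, LHX9, ZIC1, ZIC2, IRX3 and OTX2), and defining markers such as GBX2 and OLIG3 were not among the genes analysed here. These 6 had a mean log2 value of 7.71 to 9.17, lowest in the second KO library of day 25. From KO to OE the 4 measured mesenchyme markers of 10 had a median of −0.52, the 7 choroid plexus markers of 10 a median of 0.15 and the 2 measured genes of 9 on the pluripotency list were LIN28B (0.95) and SOX2 (1.27), of which SOX2 is also on the progenitor list. The choroid plexus list held moves in both directions. CLDN1 had 232 to 460 in KO and 22 to 82 in OE, and CLDN5 had 51 to 190 in KO and 108 to 238 in OE. The part of these markers in the ribosomal protein results was not tested.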

How the data were processed

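RNA-seq tables of 12 libraries of H1-derived ThOs were used; each library was made from 3 pooled ThOs after ribosomal RNA was removed with probes and RNase H. The authors deposited 1 whole-number normalized score per gene and library, with a median of 106 in every library. The normalization step is not given in the sources used here, and depth is unknown, so no counting interval was computed. The submitters' notes name bcl2fastq, Bowtie2, RSEM and hg19; the tables' gene positions overlap the RefSeq genes of GRCh38.p14 for 82 of 82 members, so positions are given in that build. ATAC-seq and CUT&Tag samples were not analysed here.

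Scores were tested as log2(score + 1) over all 9497 genes with limma 3.58.1 (R 4.3.3; trended eBayes, 6 group means, 6 residual degrees of freedom) and Benjamini-Hochberg adjustment. The planned filter on low values (at least 1 in 2 libraries) removed 0 genes. A call needed an adjusted p under 0.05 and 2-fold. Fold changes over both days average the day-wise differences. Groups without overlap had every library of one above every library of the other. Exact two-sided permutation tests shuffled libraries without regard to day. These tests and the summaries used Python 3.11.15, pandas 2.3.3, numpy 2.4.6 and scipy 1.17.1. Named were up to 5 members per direction whose libraries did not overlap in a comparison, called members, paralogs, stalk proteins, RPSA, RPS19, RPL5, RPL11, the 3 widest and 3 narrowest members and the other matching names. Others were named after their values were seen. A member and another gene are not reported here. Promoter sequences were taken from RefSeq (GRCh38.p14) by symbol. Scripts were tested on simulated data. Alternatives changed the pseudocount, scaling, filter, block, weights and libraries fitted. Members and lists were chosen with earlier results of these data known.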

Additional observations from a re-analysis of the deposited data

Results flagged for a closer look

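For 2 members the effect of a contrast had opposite signs in 2 settings, with no overlap of libraries in either. For RPS10-NUDT3, KO exceeded WT by 0.41 at day 25 and lay below it by −0.56 at day 30 on the log2 scale, a difference of −0.97. For RPLP0, the day effect was −0.17 in WT and 0.21 in OE, a difference of 0.38, and −0.18 in KO and 0.21 in OE, a difference of 0.39. The RPS10-NUDT3 difference is the change of the KO effect between the days, −0.97 ± 0.51 (SE; limma adjusted p = 0.802). The RPLP0 differences were not tested. The RPLP0 values lie on the shared steps of the scale.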

How the results depend on the processing

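The median log2 fold changes of the large and small subunit kept within the spread between replicates in 539 of 552 alternatives, whereas counts of members at an unadjusted p under 0.05 moved by over 1.5 times in 82 of 276. Many of the 552 could not move a median, so 539 does not measure robustness. The block, weights, filters, centring on the library median and leaving out libraries outside a comparison do not change the fold changes of core genes. With library weights, the counts became 2 for KO against WT (4), 1 at day 30 (2), 12 for OE against KO at day 30 (27), 34 for OE against WT (19), 29, 2 and 22 for the day in WT, KO and OE (10, 8 and 2), and 1 for the change of the KO effect with the day (3). The counts in parentheses are those of the report. The 2 libraries of a group received equal weights, 0.32 for both KO libraries of day 30. This alternative therefore weighs groups and cannot lower the second KO library of day 30 alone. With only the compared libraries fitted, they became 1 for KO against WT at day 30, 33 for OE against WT and 21, 5 and 19 for the day in WT, KO and OE. With a mean value of at least 50, the day count in OE became 1. For the counts in this section the share of all genes in the same alternative is not given. Their movement therefore cannot be read as particular to the members.

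With the replicate number as a block, the count was 36 instead of 38 for OE against KO, 1 instead of 2 for KO against WT at day 30 and 1 instead of 2 for the day in OE, and the adjusted p of RPS27 was 0.0659, so that no member was called. Equal numbers do not pair the libraries: 1 of 15 group pairs had a correlation of deviations over 0.1 (range −0.21 to 0.26), and 2 of 6 groups were nearest to their own number.

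An alternative chosen after seeing the data left out both the first WT library of day 25 and the second KO library of day 30. The counts then became 11 for KO against WT at day 25 (2), 25 for OE against KO at day 25 (15) and 2 at day 30 (27), 11 for OE against WT (19), 5, 22 and 13 for the day in WT, KO and OE, and 6 for the difference of the KO effect. The medians for the large and small subunit became 0.14 and 0.082 for the day in WT, 0.39 and 0.28 for the day in KO, and 0.24 and 0.11 for the difference of the KO effect, which reversed its sign.

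Leaving out 1 library at a time, which assumes that a lone library varies like the others, gave counts of 2 to 8 for KO against WT at day 25, 0 to 34 at day 30 and 2 to 27 over both days. It gave 2 to 23, 1 to 44 and 22 to 50 for OE against KO at day 25, at day 30 and over both, and 3 to 29 for OE against WT. For the day it gave 2 to 31 in WT, 4 to 18 in KO, 1 to 8 in OE and 17 to 44 over all genotypes, and 0 to 20 for the difference of the KO effect. The medians ranged from 0.078 to 0.50 for the small subunit in OE against KO at day 25, from 0.14 to 0.57 and 0.082 to 0.65 for the large and small subunit for the day in WT, from −0.029 to 0.39 and −0.085 to 0.28 for the day in KO, and from −0.47 to −0.034 for the small subunit in the difference of the KO effect. Calls by adjusted p and 2-fold were most frequent without the first KO library of day 30, with 15 members for KO against WT and 25 for OE against KO at day 30, where each count is 0 with all libraries. Of single named members, RPS12 reversed its day difference, to −0.06 without the first WT library of day 25 and to −0.21 without the first KO library of day 30, and reached 0.48 without the second. The cause of these movements was not tested beyond the libraries and samples each alternative removes. Read depth is unknown, so its limit on low values such as those of RPL26L1 could not be given.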
